A study of Mus musculus with 20 samples.

Results

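Klf4, Tbx3, Tfcp2l1, Sall4, Lin28a, Dppa5a and Fbxo15 are genes of mouse embryonic stem (ES) cells. They were selected on measured values, because each rose when dexamethasone (Dex) was given to cultured mesoderm cells that lack Dnmt3a and Dnmt3b. All 7 genes were found among the 18193 genes with a probe set on the arrays, and together they had 16 probe sets. Each gene was read from its brightest probe set, by the mean of all 20 arrays. Any comparison that uses the DKO Dex+ or DKO Dex- arrays therefore describes how the genes were selected, and is given with no test.

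Expression was measured on Affymetrix MOE430v2 arrays in 10 groups of 2 arrays each, from 2 genotypes of the J1 ES cell background (129sv/Jae) in 5 states. DKO cells were Dnmt3a-/-Dnmt3b-/- and lack the enzymes that place new DNA methylation, and wild-type (WT) cells had both. Each genotype was represented by 1 clone that carried Gata4GR, Gata4 joined to the part of the human glucocorticoid receptor that binds hormone and driven by the CAG promoter, so that genotype and clone cannot be told apart. Primitive endoderm (PE) was made from these ES cells by 4 days of 100 nM Dex, which activates the fusion protein, in ES medium with LIF, and the untreated ES cells were its starting point. Flk1(+) mesoderm was isolated by flow cytometry as Flk1 and PDGFRα double-positive cells on day 4 of culture on type IV collagen, and its replicate 1 came in both genotypes from the parental line without the transgene. Dex+ and Dex- cells were sorted mesoderm kept for 4 more days on type IV collagen with or without 100 nM Dex. The cultures before and after sorting used a differentiation medium that the methods list without LIF. Cell state cannot be told apart from medium and LIF where mesoderm cells are set against ES cells or PE. No array held Dex-treated cells without the transgene, so that an effect of Dex itself and one of Gata4GR cannot be told apart.

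ES cells are kept undifferentiated by a network of transcription factors that LIF sustains through Stat3. Klf4, a Krüppel-like zinc finger factor used to reprogram somatic cells, Tbx3, a T-box factor that also promotes extraembryonic endoderm in mouse ES cells, and Tfcp2l1, a grainyhead-related factor, belong to the LIF-dependent arm of that network. Sall4 is a zinc finger factor that binds with Oct4 (Pou5f1) and is needed in both ES cells and extraembryonic endoderm. Lin28a is an RNA-binding protein that blocks maturation of the let-7 microRNAs, and is active in early progenitors beyond the ES cell. Dppa5a is a small KH-domain RNA-binding protein and Fbxo15 an F-box protein whose gene is a classical Oct4 and Sox2 target; both serve as markers of the undifferentiated state. PE is the lineage of the early embryo that Gata6 and Gata4 specify, and it arises beside the Nanog-positive epiblast.

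Windows of 300 bases around an annotated start (250 before, 50 after; RefSeq, GRCm38.p6) were at hand for 3 of the 7 genes, and are shown because the 2 genotypes differ in the enzymes that methylate CpG. The arrays measured no methylation. Each is written in the direction of the gene with every CpG in capitals.
Klf4 (chr4:55532426-55532725, minus strand): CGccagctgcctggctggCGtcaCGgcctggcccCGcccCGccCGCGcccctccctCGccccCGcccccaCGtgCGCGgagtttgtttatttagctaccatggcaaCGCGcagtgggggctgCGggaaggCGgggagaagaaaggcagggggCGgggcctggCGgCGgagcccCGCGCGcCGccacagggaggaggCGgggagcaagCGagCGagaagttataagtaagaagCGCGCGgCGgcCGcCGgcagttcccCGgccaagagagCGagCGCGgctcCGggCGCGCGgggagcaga
Tfcp2l1 (chr1:118627695-118627994, plus strand): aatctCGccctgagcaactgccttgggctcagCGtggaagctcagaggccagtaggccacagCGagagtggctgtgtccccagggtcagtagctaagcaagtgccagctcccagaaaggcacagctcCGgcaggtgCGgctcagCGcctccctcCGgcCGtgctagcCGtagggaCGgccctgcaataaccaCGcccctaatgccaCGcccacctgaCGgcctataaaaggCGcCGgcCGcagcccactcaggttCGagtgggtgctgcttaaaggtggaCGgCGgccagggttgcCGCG
Lin28a (chr4:134018767-134019066, minus strand): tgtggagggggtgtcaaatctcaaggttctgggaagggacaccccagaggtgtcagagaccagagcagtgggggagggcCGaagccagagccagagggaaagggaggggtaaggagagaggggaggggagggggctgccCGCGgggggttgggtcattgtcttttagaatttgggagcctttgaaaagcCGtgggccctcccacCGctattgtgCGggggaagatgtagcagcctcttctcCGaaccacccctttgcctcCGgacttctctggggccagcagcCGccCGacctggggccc
The window of Klf4 held 40 CpG, that of Tfcp2l1 21 and that of Lin28a 10, against a median of 7 over 32851 windows of the same length. Fewer CpG than in these windows were found in 96.1% of all windows for Klf4, 75.2% for Tfcp2l1 and 56.5% for Lin28a. GATA-type motifs, searched on both strands and counted as AGATAA, or with a final guanine as AGATAG, or with a first thymine as TGATAA, or with both as TGATAG, were in none of the 3 windows and in 29.8% of all windows.

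The states were checked against their markers. All 15 primitive endoderm markers rose in PE against ES cells in both genotypes. Their median log2 change was 5.04 in DKO and 5.33 in WT cells. Of the measured early mesoderm markers 9 of 9 in DKO and 8 of 9 in WT rose in Flk1(+) cells against ES cells. Kdr, the gene of Flk1, was among those that rose, and the sort on Flk1 selected for it. Dnmt3a, a deleted gene, lay between 6.18 and 6.83 in the DKO arrays and between 7.46 and 9.44 in the WT arrays. Dnmt3b, the other deleted gene, was lower in DKO than in WT cells of each state with no overlap, at 8.97 and 8.88 in DKO ES cells, against 13.06 and 12.63 in WT ES cells. Replicates of a group correlated at 0.979 or above over all genes. Those of Flk1(+) cells were the farthest apart, with 698 genes in DKO and 880 in WT at least 2-fold apart, against 20 in WT PE. The replicates of Flk1(+) cells differed at once in line, scan day and chip lot, which cannot be told apart. All ES arrays were scanned on a day of their own, so that ES cells and that day cannot be told apart. They were on chip lots B and C and all PE arrays on lot A. Cell state and chip lot thus cannot be told apart between ES cells and PE either. The other 3 scan days each held as many DKO as WT arrays of a state.

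**Figure D1:**
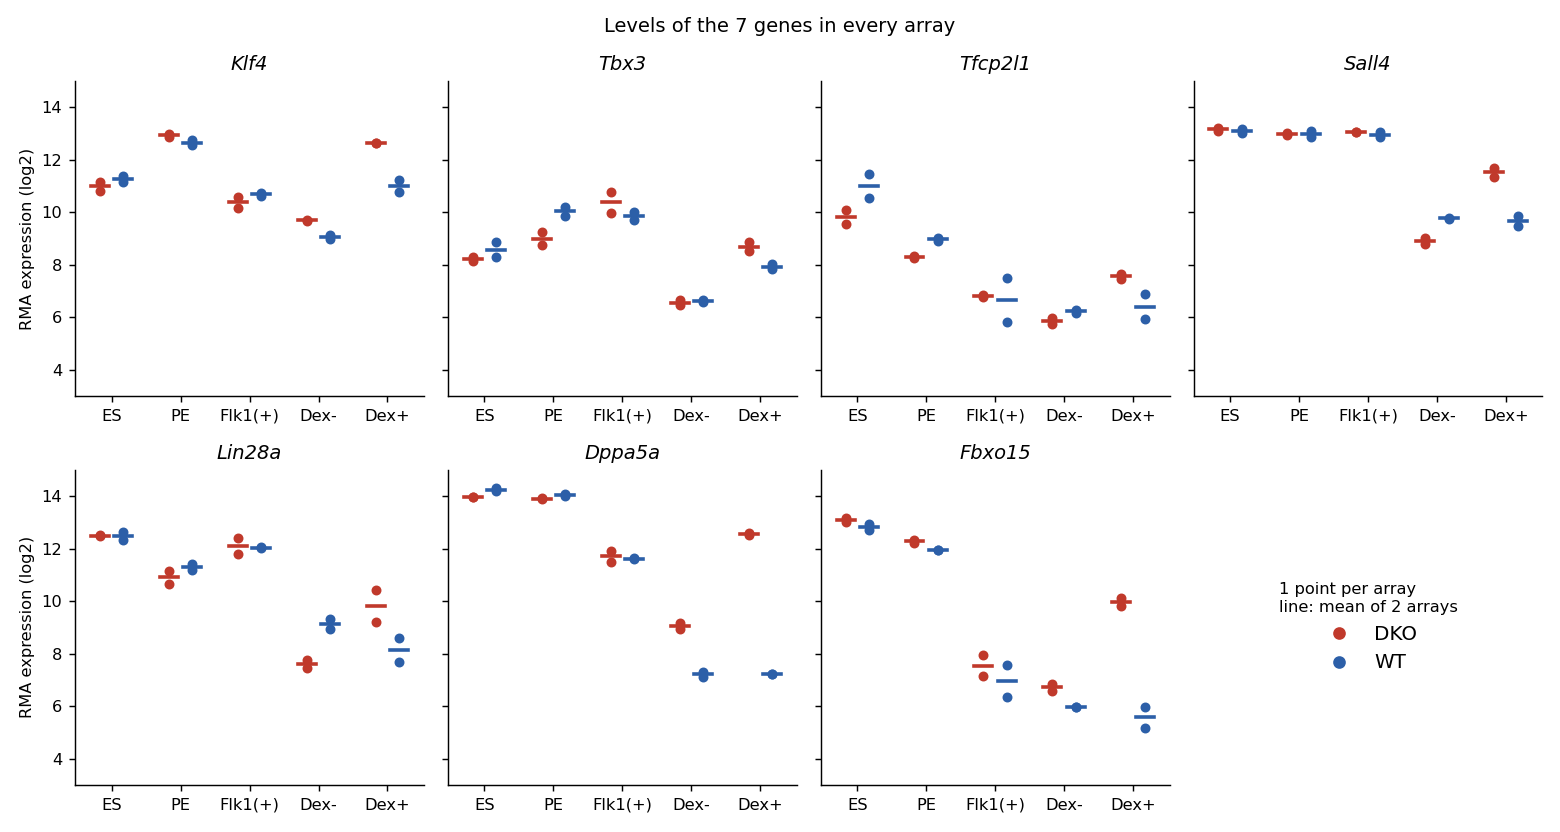
RMA expression (log2) of the 7 genes in every array, with ES cells, PE, Flk1(+) cells, Dex- and Dex+ cells along each axis, DKO in red and WT in blue, points for arrays and lines for the mean of 2 arrays. Sall4, by its main probe set, stayed between 12.87 and 13.23 in all ES, PE and Flk1(+) arrays, and Fbxo15 lay at 11.93 or above in every ES and PE array and at 7.93 or below in every Flk1(+) and Dex- array.

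PE was set against ES cells first, with arrays that the selection rule did not use. The genes were chosen with earlier results of these data known, so the comparison is not independent of that choice. The genes did not behave alike. Klf4 rose in both genotypes and Tbx3 rose in WT, Sall4 and Dppa5a stayed within a narrow range, and Lin28a and Tfcp2l1 fell in both genotypes. A gene passed where the Benjamini-Hochberg adjusted p of the limma fit over all genes was under 0.05 and the change at least 2-fold. In DKO cells 2 of the 7 genes fell, where 8.18% of all genes fell, and 1 rose, where 8.13% rose. In WT cells 2 fell, against 6.55% of all genes, and 2 rose, against 7.68%. If a fall from ES cells counts against it, the name of a gene set kept in primitive endoderm holds for part of the genes. Lin28a and Tfcp2l1 fell, with some calls lost under the alternatives given below. Fbxo15 was lower in every PE array than in every ES array but did not pass. In PE Lin28a still lay at the 90.9 percentile of all genes in DKO and the 93.4 percentile in WT. Tfcp2l1 lay at the 65.4 percentile in DKO PE and the 72.7 percentile in WT PE.

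Klf4 was at 12.88 and 12.98 in DKO PE, against 10.83 and 11.14 in DKO ES cells. Its WT values were 12.76 and 12.55 in PE, against 11.16 and 11.39 in ES cells. Every PE array was above every ES array of either genotype. The log2 change was 1.95 ± 0.18 in DKO (SE of the fit, here and below; adjusted p = 8.5e-07) and 1.38 ± 0.18 in WT (adjusted p = 3.3e-05), 3.85-fold and 2.60-fold. Tbx3 was at 9.23 and 8.74 in DKO PE, against 8.14 and 8.31 in DKO ES cells, and the difference of 0.76 ± 0.26 had an adjusted p of 0.034 but was under 2-fold; without PE replicate 2 it was 1.01, which passed. In WT cells Tbx3 was at 10.22 and 9.86 in PE, against 8.30 and 8.87 in ES cells, and rose by 1.46 ± 0.26 (adjusted p = 0.00054). The mean of all probe sets of Tbx3, of which 3 were dim, gave 0.73 in WT, short of 2-fold. The brightest of these dim sets was 0.59 higher in DKO PE and 0.48 higher in WT PE than in ES cells.

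Dppa5a was at 13.92 and 13.88 in DKO PE, against 13.98 and 13.97 in DKO ES cells. In WT cells it was at 14.08 and 13.99 in PE, against 14.18 and 14.32 in ES cells. The changes of -0.08 (95% interval -0.37 to 0.22) in DKO and -0.21 (-0.51 to 0.09) in WT did not pass, and both intervals lie inside a 2-fold change. Its only probe set lay at the 99.7 to 99.9 percentile of all genes in the ES and PE groups, near the top of the measured range, and whether the signal was saturated there was not tested. Sall4 was at 12.94 and 13.02 in DKO PE, against 13.23 and 13.09 in DKO ES cells. Its WT values were 13.08 and 12.88 in PE, against 13.17 and 13.02 in ES cells. Its intervals were -0.52 to 0.16 in DKO and -0.45 to 0.23 in WT, again inside a 2-fold change. The second probe set of Sall4, an _s_at set with lower values, was 0.70 higher in DKO PE and 0.71 higher in WT PE than in ES cells, and was not tested by itself. The main set of Sall4 lay at the 98.7 to 99.1 percentile in the ES, PE and Flk1(+) groups, and its saturation was not tested either. Fbxo15 was at 12.32 and 12.22 in DKO PE, against 13.002 and 13.17 in DKO ES cells. In WT cells it was at 11.96 and 11.93 in PE, against 12.71 and 12.92 in ES cells. Its PE arrays were all below its ES arrays, with changes of -0.82 ± 0.34 in DKO (adjusted p = 0.077) and -0.88 ± 0.34 in WT (adjusted p = 0.064), neither of which passed.

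Lin28a was at 10.65 and 11.16 in DKO PE, against 12.51 and 12.48 in DKO ES cells. Its WT values were 11.19 and 11.42 in PE, against 12.64 and 12.34 in ES cells. It fell by 1.59 on the log2 scale in DKO (SE 0.35, adjusted p = 0.0024) and by 1.19 in WT (SE 0.35, adjusted p = 0.018). The call in WT was lost without ES replicate 1 or either PE replicate, with adjusted p of 0.12, 0.11 and 0.051. Tfcp2l1 was at 8.27 and 8.33 in DKO PE, against 9.56 and 10.10 in DKO ES cells. In WT cells it was at 9.04 and 8.91 in PE, against 10.55 and 11.47 in ES cells. It fell by 1.53 in DKO (SE 0.43, adjusted p = 0.011) and by 2.04 in WT (SE 0.43, adjusted p = 0.0019), 2.89-fold and 4.10-fold. In DKO its call was lost without ES replicate 2 or either PE replicate, with adjusted p of 0.10, 0.059 and 0.051. With the mean of its 3 probe sets, of which all but the main one were flat and dim, Tfcp2l1 changed by -0.38 in DKO (adjusted p = 0.12) and by -0.60 in WT, and neither passed.

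The other pluripotency genes moved further. The list of these genes was chosen from general knowledge, but with earlier results of these data known. Of its 23 measured genes 21 fell in PE in DKO cells and 21 in WT cells, and none rose. Their median log2 change was -3.55 in DKO and -2.55 in WT, beside 0.02 over all genes in each genotype and -0.18 in DKO and -0.21 in WT for the 7 genes. Fgf4, a growth factor of the ES cell, fell by 7.33 in DKO and 3.50 in WT, and Nanog, a homeobox factor of the pluripotent state, by 6.65 in DKO and 4.09 in WT. Klf2, a close relative of Klf4, fell by 3.50 in DKO and 2.97 in WT, the opposite direction to Klf4. The 2 genes that did not pass in either genotype, named after their values were seen, were Klf5 and Sall1, relatives of Klf4 and Sall4, with changes of 0.48 and -0.97 in DKO and -0.61 and -0.53 in WT. The defining ES factors fell in the same DKO PE arrays in which Dppa5a and Sall4 differed from ES cells by -0.08 and -0.18. Pou5f1 was at 7.10 and 6.94 in DKO PE, against 11.92 and 11.74 in DKO ES cells. Sox2 was at 5.82 and 5.07 in DKO PE, against 12.10 and 12.32 in DKO ES cells. Both stayed higher in WT PE, above the third quartile of the arrays (at most 9.205). There Pou5f1 was at 9.34 and 9.45, against 12.21 and 12.29 in WT ES cells. Sox2 was there at 9.67 and 9.66, against 12.57 and 12.83 in WT ES cells.

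**Figure D2:**
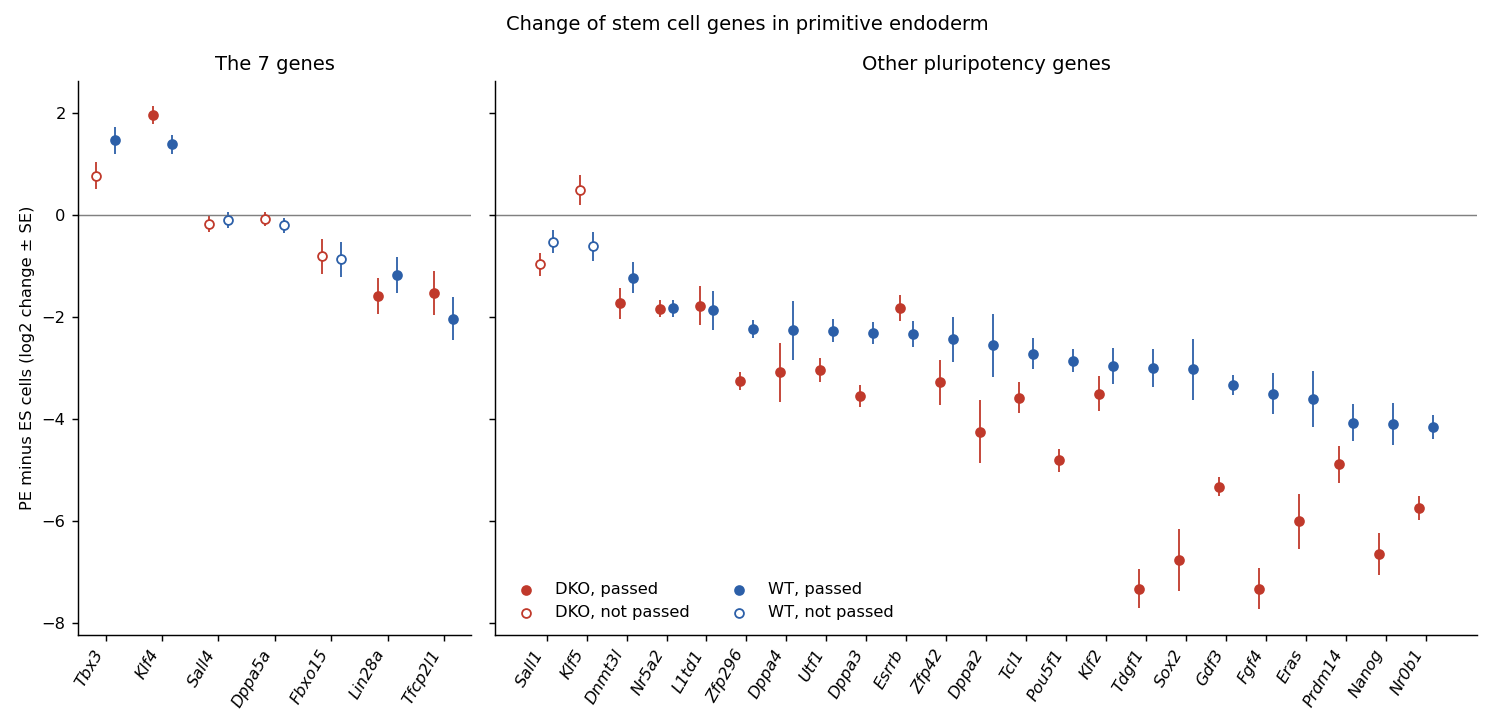
Change from ES cells to PE (log2, vertical axis, bars ± SE of the fit) of the 7 genes on the left and of 23 other pluripotency genes on the right, DKO in red and WT in blue, filled where the change passed. Klf4 lies at 1.95 in DKO and 1.38 in WT, whereas 21 of the 23 other genes fell in each genotype, down to -7.33 for Fgf4 in DKO.

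The pathways around the genes were mixed. Of the 12 LIF-Stat3 pathway genes, 3 rose and 3 fell in DKO PE, and 2 rose and 3 fell in WT PE. Lif, the cytokine itself, rose by 2.59 in DKO and 2.17 in WT, and Socs3, the feedback inhibitor and Stat3 target, changed by 1.40 in DKO, which passed, and by 0.98 in WT, which did not. Gbx2, Bcl3 and Pim1, further targets of the pathway, fell in both genotypes, with changes of -2.50 in DKO and -3.14 in WT for Gbx2. Of 7 measured genes of the Lin28-let-7 axis 1 fell in each genotype, Trim71, by 1.72 in DKO and 1.30 in WT; Lin28b, the paralog of Lin28a, changed by -0.73 in DKO and -0.57 in WT, short of 2-fold. Among 23 relatives of the 7 genes, 4 rose and 7 fell in DKO, and 3 rose and 8 fell in WT. Tbx18, a T-box relative of Tbx3, rose by 2.64 in DKO and 3.20 in WT, and Grhl1, a grainyhead relative of Tfcp2l1, fell by 3.38 in DKO and 2.84 in WT. Ooep and Khdc3, KH-domain relatives of Dppa5a from oocytes, fell too, with changes of -2.12 and -2.25 in DKO and of -2.59 and -1.995 in WT.

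The DKO clone was set against the WT clone in ES cells and in PE. This cannot separate the loss of Dnmt3a and Dnmt3b from other differences between the clones. None of the 7 genes passed between DKO and WT ES cells, where 1.39% of all genes did, and 1 had an unadjusted p under 0.05. That gene was Tfcp2l1, at 9.56 and 10.10 in DKO against 10.55 and 11.47 in WT, a difference of -1.18 ± 0.43 (adjusted p = 0.23). In PE 1 of the 7 passed, against 1.96% of all genes. Tbx3 was at 9.23 and 8.74 in DKO PE, against 10.22 and 9.86 in WT PE, a log2 difference of -1.05 ± 0.26 (adjusted p = 0.038). The difference was -0.98 and -1.12 within the 2 scan days that held PE, but the call was lost without any of the 4 PE arrays, with adjusted p of 0.055 to 0.38, and with the mean of all probe sets (-0.61, adjusted p = 0.083). The other 6 genes differed by 0.67 or less in PE. In the same comparison 11 of the 23 other pluripotency genes were lower in DKO PE, led by Tdgf1 (-4.35), Sox2 (-4.22) and Fgf4 (-3.67). The response of DKO cells minus that of WT cells passed for none of the 7 genes, where 1.36% of all genes passed and 1 of the 7 had an unadjusted p under 0.05. It was Klf4, with a difference between responses of 0.57 (95% interval 0.03 to 1.11, adjusted p = 0.53).

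Mesoderm differentiation separated the genes in another way. In Flk1(+) cells against ES cells Dppa5a, Fbxo15 and Tfcp2l1 fell and Tbx3 rose in both genotypes, whereas Sall4 and Lin28a did not pass. In DKO cells 3 of the 7 genes fell, where 5.62% of all genes fell, and 1 rose, where 4.56% rose. In WT cells 3 fell, against 6.30%, and 1 rose, against 6.15%. Fbxo15 was at 7.14 and 7.93 in DKO Flk1(+) cells, against 13.002 and 13.17 in DKO ES cells. Its WT values were 7.56 and 6.34 in Flk1(+) cells, against 12.71 and 12.92 in ES cells. It fell by 5.55 in DKO and 5.87 in WT, the widest change of the 7 in this comparison. Tfcp2l1 was at 6.85 and 6.77 in DKO Flk1(+) cells and at 7.50 and 5.82 in WT Flk1(+) cells, all below its ES arrays, and fell by 3.02 in DKO and 4.35 in WT. Dppa5a was at 11.51 and 11.90 in DKO and at 11.63 and 11.60 in WT Flk1(+) cells, and its changes against ES cells of -2.27 in DKO and -2.63 in WT passed. With the mean of all probe sets the calls of Tfcp2l1 in DKO (-0.99) and of Tbx3 in WT (0.56) were lost, and those of Tfcp2l1 in WT (-1.49) and of Tbx3 in DKO (1.13) were kept.

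Tbx3 was at 9.97 and 10.79 in DKO Flk1(+) cells, against 8.14 and 8.31 in DKO ES cells, and rose by 2.16 ± 0.26. In WT cells Tbx3 was at 10.02 and 9.70 in Flk1(+) cells, against 8.30 and 8.87 in ES cells, and rose by 1.28 ± 0.26. Without WT ES replicate 1 the change in WT was 0.99, just short of 2-fold. Sall4 was at 13.06 and 13.05 in DKO Flk1(+) cells and at 12.87 and 13.05 in WT Flk1(+) cells, with 95% intervals against ES cells of -0.44 to 0.24 in DKO and -0.48 to 0.20 in WT. Lin28a was at 12.40 and 11.80 in DKO and at 12.05 and 12.03 in WT Flk1(+) cells, with wider intervals of -1.14 to 0.36 in DKO and -1.20 to 0.30 in WT. Klf4 changed by -0.61 in DKO and -0.60 in WT, under 2-fold.

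Set directly against PE, Flk1(+) cells had less Klf4, Dppa5a, Fbxo15 and Tfcp2l1 in both genotypes. In DKO cells 6 of the 7 genes passed, 4 lower and 2 higher, where 12.8% of all genes passed in either direction. In WT cells 4 were lower, against 5.79% of all genes. The differences were -4.73 in DKO and -4.99 in WT for Fbxo15, -2.55 in DKO and -1.97 in WT for Klf4, -2.19 in DKO and -2.42 in WT for Dppa5a, and -1.49 in DKO and -2.31 in WT for Tfcp2l1. Within the scan day that held both states, Fbxo15 differed by -4.38 in DKO and -5.62 in WT and Klf4 by -2.30 in DKO and -2.14 in WT, from 1 array of each. Lin28a was higher in Flk1(+) cells than in PE in DKO (1.20 ± 0.35, adjusted p = 0.019), and the difference in WT was 0.73 (adjusted p = 0.18). The DKO call for Lin28a was lost without PE replicate 1 (0.95, adjusted p = 0.16) or Flk1(+) replicate 1 (0.90, adjusted p = 0.15). Tbx3 was higher by 1.39 in DKO (0.98 without Flk1(+) replicate 2) and differed by -0.18 in WT. The difference between these 2 genotype values was not tested. The call of Tfcp2l1 in DKO was lost without any 1 of the 4 arrays compared, with adjusted p of 0.054 to 0.084. In WT it was lost when the arrays compared were fitted alone (-2.31, adjusted p = 0.059), and the difference was -1.47 without Flk1(+) replicate 2, which still passed. With the mean of all probe sets Tfcp2l1 differed by -0.61 in DKO and -0.89 in WT and Tbx3 by 0.67 in DKO, none of which passed, while Lin28a in WT differed by 1.13 and passed.

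No gene of the 7 passed between DKO and WT Flk1(+) cells, where 0.698% of all genes passed, and none had an unadjusted p under 0.05. With the transgenic clones alone Fbxo15 differed by 1.60 (adjusted p = 0.0068), at 7.93 in DKO and 6.34 in WT, each from 1 array that is assumed to vary like the other groups. In the parental lines, on another scan day and chip lot, the difference was -0.42.

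After further culture of sorted WT mesoderm without Dex most of the genes were lower. In WT Dex- cells 5 of the 7 genes fell against WT Flk1(+) cells, where 7.79% of all genes fell. Dppa5a was at 7.29 and 7.13 in WT Dex- cells, against 11.63 and 11.60 in WT Flk1(+) cells. Sall4 was at 9.75 and 9.80 in WT Dex- cells, against 12.87 and 13.05 in WT Flk1(+) cells. Both fell with no overlap, with changes of -4.40 ± 0.14 and -3.18 ± 0.16. The changes of Tbx3 (-3.23, and -1.22 with the mean of all probe sets), Lin28a (-2.91) and Klf4 (-1.61) passed too. Fbxo15, at 5.98 and 5.96 in WT Dex- cells, differed by -0.98 (adjusted p = 0.039), and Tfcp2l1 by -0.42. Both had unequal values in the 2 WT Flk1(+) arrays. Without replicate 2 of those cells, which left the parental line, Fbxo15 changed by -1.59 and Tfcp2l1 by -1.26. Without replicate 1, which left the transgenic clone, Fbxo15 changed by -0.37 and Tfcp2l1 by 0.42. Of the mural cell markers 5 of 8 rose in the same comparison. Fewer cells of a type and less RNA per cell cannot be told apart in such bulk samples.

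The response of mesoderm to Dex was then set beside that of ES cells. In WT cells, which the selection rule did not use, 2 of the 7 genes rose with Dex, where 1.15% of all genes rose. An unadjusted p under 0.05 was found for 3 genes, Klf4 and Tbx3, which rose, and Lin28a, which was lower. Klf4 was at 10.76 and 11.25 in WT Dex+ cells, against 9.15 and 8.99 in WT Dex- cells, and rose by 1.93 ± 0.18 (adjusted p = 2.1e-05). Tbx3 was at 7.83 and 8.04 in WT Dex+ cells, against 6.59 and 6.67 in WT Dex- cells, and rose by 1.30 ± 0.26 (adjusted p = 0.014). All Dex+ arrays were scanned on 1 day, which held only replicate 2 of the Dex- cells, so that Dex and scan day were partly tied. Within that day Klf4 differed by 2.01 and Tbx3 by 1.27, from 1 Dex- array. These are the same arrays that remain without Dex- replicate 1. The call for Tbx3 was lost without Dex- replicate 1, Dex- replicate 2 or Dex+ replicate 2, with adjusted p of 0.10, 0.059 and 0.13, and with the mean of all its probe sets (0.47, adjusted p = 0.25). Dppa5a was at 7.23 and 7.23 in WT Dex+ cells, against 7.29 and 7.13 in WT Dex- cells, with a 95% interval of -0.28 to 0.31. Sall4 differed by -0.10, with an interval of -0.44 to 0.24. Lin28a was at 7.67 and 8.60 in WT Dex+ cells, against 8.94 and 9.31 in WT Dex- cells, a difference of -0.996 ± 0.35 (adjusted p = 0.21). Of the 23 other pluripotency genes 1 rose, L1td1, an RNA-binding protein gene, by 2.79, and of the 15 primitive endoderm markers 3 rose. Tbx18 rose by 2.46.

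The DKO response, on which the genes were selected, is described only. All 7 genes were at least 2-fold higher in DKO Dex+ cells, where 4.77% of all genes were, which the selection fixed. Dppa5a was at 12.51 and 12.59 in DKO Dex+ cells, against 8.93 and 9.17 in DKO Dex- cells, 3.50 higher on the log2 scale. Fbxo15 was at 9.81 and 10.11 in DKO Dex+ cells, against 6.58 and 6.85 in DKO Dex- cells, 3.25 higher. Klf4 was at 12.64 and 12.65 in DKO Dex+ cells, against 9.71 and 9.67 in DKO Dex- cells, 2.95 higher. Sall4 was at 11.35 and 11.70 in DKO Dex+ cells, against 8.79 and 9.02 in DKO Dex- cells. Lin28a was at 9.22 and 10.41 in DKO Dex+ cells, against 7.76 and 7.45 in DKO Dex- cells, with the widest gap between replicates of the 7. Tbx3 was at 8.54 and 8.86 in DKO Dex+ cells, against 6.46 and 6.66 in DKO Dex- cells. Tfcp2l1, which had the smallest difference of the 7 (1.69), was at 7.47 and 7.65 in DKO Dex+ cells, against 5.99 and 5.75 in DKO Dex- cells. For all 7 genes both DKO Dex+ arrays were also above both WT Dex+ arrays. The DKO difference exceeded the WT difference by between 0.84 (Tbx3) and 3.63 (Fbxo15).

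The list of 23 other pluripotency genes leaves out the 7 genes. Its contrast with them in this comparison was therefore partly fixed by the selection. Of the 23 others 3 were at least 2-fold higher in DKO Dex+ than in DKO Dex- cells, L1td1 by 3.15, Sall1 by 2.16 and Tdgf1 by 1.17, and 3 were at least 2-fold lower, Dppa4 (-1.22), Dppa2 (-1.19) and Sox2 (-1.15), with a median of -0.03 over the list and 0.01 over all genes. Nanog was at 4.13 and 3.95 in DKO Dex+ cells, against 4.42 and 4.39 in DKO Dex- cells. These values lay below the first quartile of the arrays (5.06 to 5.23). Pou5f1 was at 4.64 and 4.23 in DKO Dex+ cells, against 4.99 and 5.77 in DKO Dex- cells. Zfp42, a further ES cell marker, went the other way, at 8.17 and 7.98 in DKO Dex+ cells, against 7.25 and 6.99. Esrrb was at 7.12 and 7.37 in DKO Dex+ cells, against 7.14 and 6.81 in DKO Dex- cells. The 15 primitive endoderm markers moved with the 7 genes. Of these 13 were at least 2-fold higher in DKO Dex+ cells, with a median difference of 2.95, while 6 of the 8 mural cell markers were at least 2-fold lower. The mean of the primitive endoderm markers was 11.71 and 11.75 in DKO Dex+ cells, against 9.06 and 8.96 in DKO Dex- cells. Their part in the levels of the 7 genes was not tested.

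**Figure D3:**
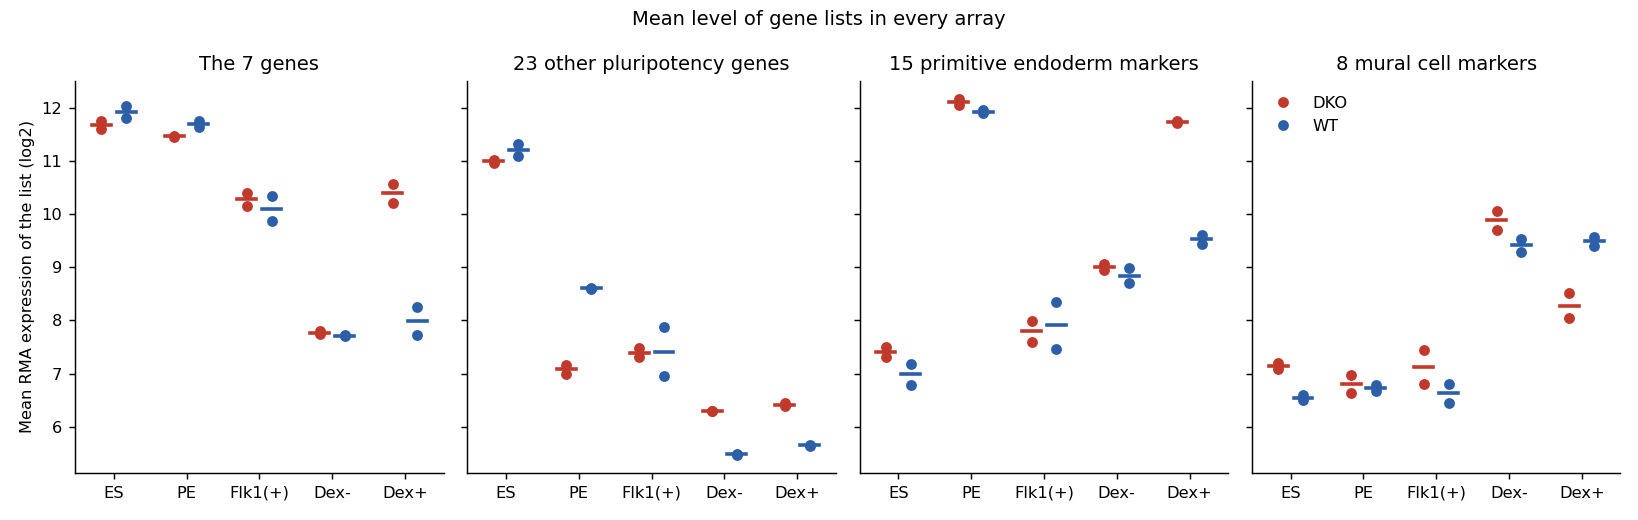
Mean RMA expression (log2) in every array, of the 7 genes, of 23 other pluripotency genes, of 15 primitive endoderm markers and of 8 mural cell markers, over the 5 states, DKO in red and WT in blue, lines for the mean of 2 arrays. The mean of the 7 genes was 10.22 and 10.57 in DKO Dex+ cells, against 7.72 and 8.26 in WT Dex+ cells, and that of the other pluripotency genes was 6.38 and 6.44 in DKO Dex+ cells, against 5.64 and 5.66 in WT Dex+ cells.

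The Dex+ cells were also set against PE of the same genotype, which had received the same dose for the same number of days. Starting cell and culture medium, with or without LIF, differed together between these cells. In WT all 7 genes were lower in Dex+ cells than in PE, where 6.20% of all genes were lower. With the mean of all probe sets Tbx3 (-0.92) and Tfcp2l1 (-0.98) no longer passed. Dppa5a was at 7.23 and 7.23 in WT Dex+ cells, against 14.08 and 13.99 in WT PE, a difference of -6.81. Fbxo15 was at 5.18 and 5.98 in WT Dex+ cells, against 11.96 and 11.93 in WT PE, a difference of -6.36. The other differences lay between -1.65 (Klf4) and -3.31 (Sall4). Within the scan day that held both states these differences were -6.76 for Dppa5a, -6.35 for Fbxo15, -1.54 for Klf4 and -3.21 for Sall4. They came from 2 Dex+ arrays and 1 PE array. In DKO, as a description, the same differences were smaller in size for each gene, from -0.29 for Klf4 and Tbx3 to -2.31 for Fbxo15, with Dppa5a at -1.35 and Sall4 at -1.46. Other lists moved in the same comparison. Of the other pluripotency genes 18 of 23 were lower in WT Dex+ cells than in WT PE, with a median of -2.79, beside -3.17 for the 7 genes and 0.0011 over all genes. Of the primitive endoderm markers 12 of 15 were lower, with a median of -1.88, and 5 of the 8 mural cell markers were higher, with a median of 3.56 over that list. Their part in the levels of the 7 genes was not tested here either. Without Dex, DKO Dex- cells differed from WT Dex- cells, as a description, by 1.84 for Dppa5a, 0.75 for Fbxo15 and 0.62 for Klf4, and by -1.52 for Lin28a and -0.87 for Sall4.

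Over all 10 groups the order of the group means was as follows. Klf4 was highest in DKO PE, then WT PE, DKO Dex+, WT ES, WT Dex+, DKO ES, WT Flk1(+), DKO Flk1(+), DKO Dex- and WT Dex- cells. WT PE and DKO Dex+ overlapped, as did WT ES with WT Dex+ and WT Dex+ with DKO ES cells. Tbx3 was highest in DKO Flk1(+), then WT PE and WT Flk1(+) cells, which followed with overlap at each step, and after a gap came DKO PE, DKO Dex+, WT ES and DKO ES cells, each overlapping the next. WT Dex+ cells came next, and WT Dex- and DKO Dex- cells, which overlapped, were lowest. Tfcp2l1 was highest in WT ES, then DKO ES, WT PE, DKO PE and DKO Dex+ cells with no overlap between neighbours, and DKO Flk1(+), WT Flk1(+), WT Dex+ and WT Dex- cells, which overlapped at each step, stood above DKO Dex- cells.

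For Sall4 the ES, PE and Flk1(+) groups of both genotypes spanned group means of 12.96 to 13.16, with overlap between most neighbours. DKO Dex+ cells followed, then WT Dex- and WT Dex+ cells, which overlapped, and DKO Dex- cells. Lin28a was highest in ES cells and Flk1(+) cells, DKO and WT overlapping at each step, then WT PE, DKO PE, DKO Dex+ and WT Dex- cells, of which the last 2 overlapped, and then WT Dex+ and DKO Dex- cells, which overlapped too. Dppa5a ran from WT ES through WT PE, DKO ES and DKO PE to DKO Dex+ cells with no overlap, then to the overlapping DKO and WT Flk1(+) cells, DKO Dex- cells and the overlapping WT Dex+ and WT Dex- cells. Fbxo15 ran from DKO ES through WT ES, DKO PE and WT PE to DKO Dex+ cells with no overlap, then to DKO Flk1(+), WT Flk1(+) and DKO Dex- cells, which overlapped at each step, and the overlapping WT Dex- and WT Dex+ cells. The span between the highest and the lowest group mean was between 3.82 for Tbx3 and 7.51 for Fbxo15.

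Likeness of the 7 patterns was described with Pearson's r over the 20 arrays, which share the states and partly the scan days and include the 4 DKO Dex+ and Dex- arrays on which the genes were selected to rise together. All 21 pairs had a positive r, between 0.29 (Tbx3 with Tfcp2l1, and Klf4 with Lin28a) and 0.95 (Sall4 with Lin28a). Fbxo15 had an r of 0.91 with both Tfcp2l1 and Dppa5a. Over the 16 arrays without those 4, a choice made after seeing the data, r ran between 0.11 (Tbx3 with Tfcp2l1) and 0.94 (Sall4 with Dppa5a). Among 1627 named genes outside the 7 with an SD of at least 1 over the arrays, those most like each were Mpzl2 and Ogfrl1 for Klf4 (r = 0.93 for both), Scd1 and Ripk4 for Tbx3 (0.87 for both), Grb7 (0.97) and Mybl2 (0.95) for Tfcp2l1, Timeless and Lig1 for Sall4 (0.97 for both), Zranb3 and Uhrf1 for Lin28a (0.95 for both), Nefl and Haspin for Dppa5a (0.96 for both) and Mtmr7 (0.97) and Platr4 (0.96) for Fbxo15. For the mean of the 7 centred patterns they were Fam169a (0.96), L1td1 (0.95), Epop (0.95), Orc1 (0.94) and Esco2 (0.94).

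**Figure D4:**
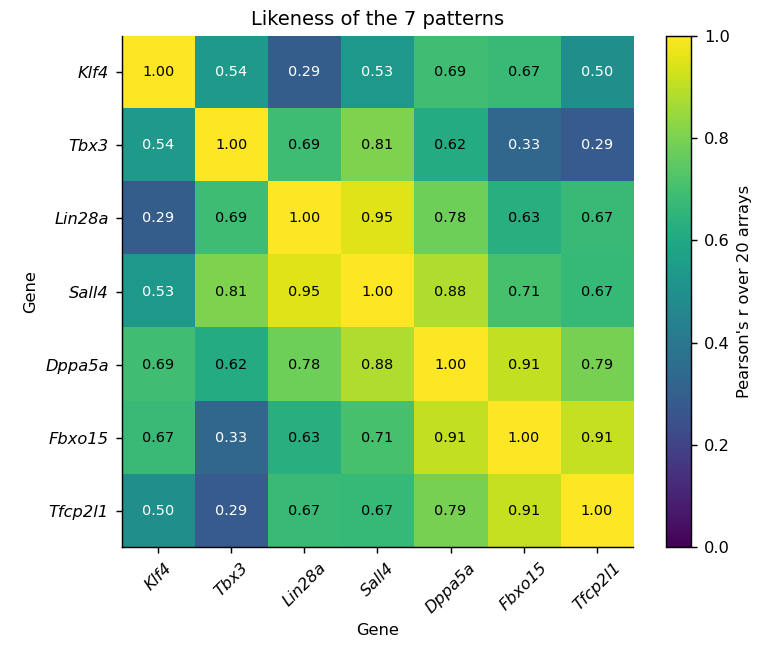
Pearson's r between each pair of the 7 genes over 20 arrays, genes on both axes and r as colour and number. Sall4 with Lin28a was highest at 0.95, and Klf4 with Lin28a and Tbx3 with Tfcp2l1 were lowest at 0.29.

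The probe sets other than the main ones bear on how far the values go. Those of Klf4 and Tbx3 that were next in brightness followed the main set with r of 0.98 and 0.96. For Klf4 the second set was 1.93 higher in DKO PE and 1.11 higher in WT PE than in ES cells, and 1.48 higher in WT Dex+ than in WT Dex- cells. For Tbx3 it was 0.85 higher in DKO PE and 1.39 higher in WT PE, and 1.47 higher in WT Dex+ than in WT Dex- cells. The second set of Lin28a was 1.98 lower in DKO PE and 1.86 lower in WT PE than in ES cells, but only 0.74 higher in DKO Dex+ than in DKO Dex- cells, against 2.21 with the main set, and differed by -0.51 in WT Dex+ against WT Dex- cells. The further sets of Tfcp2l1 stayed between 3.06 and 3.77 in all arrays and those of Tbx3 other than the brightest pair between 4.12 and 6.25. The second set of Sall4 was 1.14 higher in DKO Dex+ than in DKO Dex- cells, against 2.62 with the main set. In Flk1(+) cells against PE it differed by -0.67 in DKO and -0.91 in WT. The main set of Sall4 differed there by 0.07 in DKO and -0.03 in WT. Dppa5a and Fbxo15 had 1 probe set each. In the annotation of GRCm38.p6 the 4 genes with no promoter window lie at chr5:119670534-119684724 (Tbx3), chr2:168748332-168767201 (Sall4), chr9:78367052-78368199 (Dppa5a) and chr18:84934552-84981476 (Fbxo15), and all 7 are protein coding.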

How the data were processed

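The deposited log2 expression values of 20 arrays were made by the authors from raw intensities with RMA (background correction, quantile normalization and probe set summary), whose version is not given in the sources used here; raw intensities were not used here. Scan days and chip lots came from the deposited experiment information, of which no other value was used. Chip lots entered no fit. Of 45101 probe sets, 64 controls, 932 with several gene symbols and 9211 with none (controls included) were left out. The brightest probe set by its mean over all arrays stood for each of 18193 genes, and symbols were brought to those of GRCm38.p6. The 20 arrays were fitted together in limma 3.58.1 in R 4.3.3 with a mean for every group (10 residual and 4.54 prior degrees of freedom), with Benjamini-Hochberg adjustment over all genes and a threshold of 0.05 and 2-fold. It took the place of the SAM procedure of the methods, whose threshold is not stated. Group comparisons have 2 arrays each, which limits their precision; an exact permutation test of 2 against 2 cannot go below p = 0.333. The methods say that duplicates came from independent experiments. Of 19 comparisons 13 were tested for the 7 genes and 6 described. Other pluripotency genes, pathway genes and relatives were named where their change was among the 6 largest of their list. Pou5f1, Sox2, Nanog, Esrrb and Zfp42 were also given as ES cell markers. Klf5 and Sall1 were given as the genes of a list that did not pass. The most alike genes were named by the highest r, with clone and locus names left out. The genes and lists were chosen with earlier results of these data known. The fit was tested on simulated data. Alternatives covered the probe set, scaling, filter, variance model, arrays in the fit, scan day and replicate block.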

Additional observations from a re-analysis of the deposited data

Results flagged for a closer look

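Lin28a moved in opposite directions with Dex in the 2 genotypes. It was higher by 2.21 on the log2 scale in DKO Dex+ than in DKO Dex- cells, with both Dex+ arrays (9.22 and 10.41) above both Dex- arrays (7.76 and 7.45), and differed by -0.996 in WT Dex+ against WT Dex- cells, with both Dex+ arrays (7.67 and 8.60) below both Dex- arrays (8.94 and 9.31). It drew attention because every array of a genotype moved one way and every array of the other the opposite way. The difference was not tested, since the DKO arrays selected the gene, and the WT change did not pass by itself (adjusted p = 0.21). Leaving out 1 array moved the WT change between -1.46 (without Dex+ replicate 2) and -0.53 (without Dex+ replicate 1), and the second probe set of Lin28a differed by 0.74 in DKO and -0.51 in WT. No other gene of the 7 moved in opposite directions without overlap in any of the 6 state comparisons made in both genotypes.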

How the results depend on the processing

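Of 91 tested changes of the 7 genes 40 passed, and 26 of these passed under every alternative. With the mean of all probe sets, which for Tbx3 and Tfcp2l1 includes flat ones, 1 of the 7 genes fell in PE against ES cells in DKO and 1 in WT, 0 differed between DKO and WT PE, and 1 changed with Dex in WT; Sall4 then turned to 0.26 in DKO PE and 0.30 in WT PE against ES cells, to -0.30 in DKO Flk1(+) cells against PE and to -0.034 between DKO and WT PE, and Lin28a to -0.10 between DKO and WT ES cells and -0.15 between DKO and WT Flk1(+) cells. Without both parental-line arrays 1 gene, Fbxo15, differed between DKO and WT Flk1(+) cells, Lin28a turned there to -0.22, Sall4 to 0.062 in WT Flk1(+) cells against PE, and Tfcp2l1 to 0.42 in WT Dex- against Flk1(+) cells. Other turned signs were close to 0. With equal medians Sall4 turned to 0.017 in the difference between PE responses and Lin28a to -0.064 between ES cells. With a repeated quantile step Sall4 turned to -0.071 between DKO and WT PE, Lin28a to -0.0085 between Flk1(+) cells and Dppa5a to -0.0060 for Dex in WT. With scan day as a block Sall4 turned to 0.023 in WT Flk1(+) cells against PE and Dppa5a to -0.013 for Dex in WT. The cause was not tested.

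Leaving out 1 array at a time gave 1 to 2 genes lower in PE than ES cells in DKO and likewise 1 to 2 in WT, 0 to 0 different between DKO and WT PE, and 1 to 2 changed with Dex in WT. Signs that turned belonged to changes that had not passed. They ranged, for Dex in WT, from -0.068 to 0.10 for Dppa5a, -0.78 to 0.0084 for Fbxo15, -0.30 to 0.093 for Sall4 and -0.30 to 0.65 for Tfcp2l1. Between DKO and WT Flk1(+) cells they ranged from -0.11 to 0.29 for Dppa5a, -0.019 to 1.20 for Fbxo15, -0.23 to 0.37 for Lin28a and -0.69 to 0.99 for Tfcp2l1. Between DKO and WT ES cells Lin28a ranged from -0.15 to 0.15 and Sall4 from -0.011 to 0.14, and between DKO and WT PE Sall4 from -0.099 to 0.099. In the difference between PE responses Fbxo15 ranged from -0.049 to 0.17 and Sall4 from -0.17 to 0.032, in WT Flk1(+) cells against PE Sall4 from -0.13 to 0.072, and in WT Dex- against Flk1(+) cells Tfcp2l1 from -1.26 to 0.42.

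With the replicate number as a block the counts stayed as reported, with 2 genes lower in PE than ES cells in each genotype and 7 lower in WT Dex+ cells than in WT PE, and no call changed; same-numbered DKO and WT arrays deviated together with r of 0.18 to 0.36 over genes. Over all genes, calls between DKO and WT Flk1(+) cells went to 551 without the parental lines and 0 with those arrays fitted alone, from 127 in the reported fit. Those of the difference between PE responses were 128 without the lowest 40% of genes and 525 with those arrays alone, from 248, those between ES cells 120 without the lowest 40%, from 252, and those for Dex in WT 156 with those arrays alone, from 291. ES cells against other states could not be given a scan day block.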
